A study of Homo sapiens with 4 samples.

Results

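The minor spliceosome protein genes described here are ZCRB1 and 7 further genes whose products belong to the U11/U12 particle: RNPC3, SNRNP25, SNRNP35, SNRNP48, PDCD7, ZRSR2 and ZMAT5. They were found as the array features whose platform annotation names exactly 1 gene with one of these symbols. All 8 genes were found, with 11 features, among 18334 genes and 45220 features in all. ZCRB1 was chosen by its measured values, namely its very large difference between arrays of opposite dye orientation, so that difference is given as a description with no test. The other 7 genes were chosen because their proteins work in the same particle.

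The study compared HEK293T cells transfected with plasmids that express a siRNA against CHD6, a chromodomain helicase of the chromatin remodeler family, with HEK293T cells given plasmids for a control siRNA. HEK293T is a line derived from human embryonic kidney and carrying SV40 large T antigen. RNA was taken at 48 h, and 4 Agilent 2-colour arrays each set 1 siRNA sample against 1 control sample. Replicates 1 and 3 are called the Cy3 arrays, because there the CHD6 siRNA sample was labelled with Cy3, and replicates 2 and 4, where it was labelled with Hy5, the Hy5 arrays. Nothing in the labels says that the replicates came from separate cultures, so each p-value rests on a spread that may be technical. The values are log ratios within an array, taken as log2, and hold no expression levels. The identity of the cells could therefore not be checked against markers by level, and fewer cells and less RNA per cell cannot be told apart.

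Most human introns are removed by the major spliceosome, and a small class, the U12-type introns, by the minor spliceosome. In the latter, the U11 and U12 small nuclear ribonucleoproteins bind the intron together as 1 di-snRNP, U11 at the 5′ splice site and U12 at the branch point. ZCRB1 carries an RNA recognition motif and a CCHC zinc knuckle, and is one of the proteins found in this di-snRNP but not in the U1 and U2 particles of the major spliceosome.

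For each gene, 2 quantities were taken from 1 limma model over all genes. The mean log ratio is the average of the 4 columns as deposited. The dye orientation difference is the mean of the Hy5 arrays minus the mean of the Cy3 arrays, divided by 2. If every column is CHD6 siRNA over control, the mean is the treatment difference. The dye orientation difference is then a difference between the dyes and not between the treatments, and a negative value means a higher Cy3 channel. If the columns are Hy5 over Cy3, the dye orientation difference is the treatment difference instead, and a negative value would mean a lower level with the CHD6 siRNA. The files do not settle this. The first reading is called likely, because all 4 titles name the siRNA first and because CHD6 feature 27564 was below 0 in all 4 columns. That feature was at -1.13, -1.21, -0.85 and -1.42 on replicates 1 to 4, while CHD6 features 1672 and 36130 had means of -0.02 and -0.17. Feature 1672 is annotated to the same transcript as feature 27564, so the likely reading rests on 1 feature that its partner did not follow. A feature below 0 in all 4 columns would, under the second reading, differ between the dyes and not between the treatments. Across features, arrays of opposite orientation correlated at -0.835 to -0.685 and arrays of the same orientation at 0.790 and 0.796. Of all genes, limma called 8219 on the dye orientation difference and 4 on the mean. Under the first reading this pattern is between the dyes, and under the second between the treatments. Which reading holds was not tested. CHD6 as the mean of its 3 features was at -0.45 ± 0.15 (SD, n = 4; limma adjusted p = 0.134).

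ZCRB1 was far from 0 on every array, with opposite signs in the 2 dye orientations. Its log ratio was 2.50 on replicate 1 and 3.01 on replicate 3, the Cy3 arrays. It was -2.88 on replicate 2 and -3.17 on replicate 4, the Hy5 arrays. The 2 channels of an array thus differed by 5.66-fold, 7.36-fold, 8.06-fold and 9.0-fold on replicates 1 to 4, and the orientations did not overlap. In the likely direction the Cy3 channel was the higher on every array, whichever sample it held.

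The Cy3 and Hy5 arrays had ZCRB1 means of 2.76 and -3.03, a distance of 5.78. Arrays of the same orientation lay much closer to each other, 0.51 apart on the Cy3 arrays and 0.29 apart on the Hy5 arrays. The dye orientation difference was -2.89, a 7.41-fold ratio, and this was the largest in size of all 18334 genes. Below it came THAP9-AS1 at -2.51 and NACA4P at -2.49. Over 2 in size were 16 genes, and all 16 of them were below 0.

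A single feature, 36694, carries the whole ZCRB1 value, so no other feature of the gene can be set beside it. Among all 45220 features it ranked 39 from the highest on replicate 1 and 6 from the highest on replicate 3. On replicates 2 and 4 it ranked 11 and 12 from the lowest. By size of the dye orientation difference the feature ranked 10. Of the 9 features above it, 6 have no gene name here, and 3 belong to genes with several features, whose average is smaller. Those 3 show how far features of 1 gene can differ in this quantity. BTN2A1 had 2 features, at -3.10 and 0.76, BAG4 had 2, at -3.08 and -1.07, and the 4 features of ZNG1E ranged from -2.97 to -0.10. Whether a second feature of ZCRB1 would have shown its value was not tested.

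Taken over all 4 columns as deposited, ZCRB1 was at -0.14 ± 3.35 (SD, n = 4), or 91.1% of control in the likely direction. That mean did not pass the test with dye orientation in the model (SE 0.099, 95% interval -0.36 to 0.09, limma adjusted p = 0.734), nor with the intercept alone. Leaving out replicate 3 gave -0.26 and leaving out replicate 1 gave -0.0075. The same 4 values would put ZCRB1 at -2.89 if the columns were turned by dye. The 2 readings thus place this gene either near 0 or at the far end of the series.

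**Figure D1:**
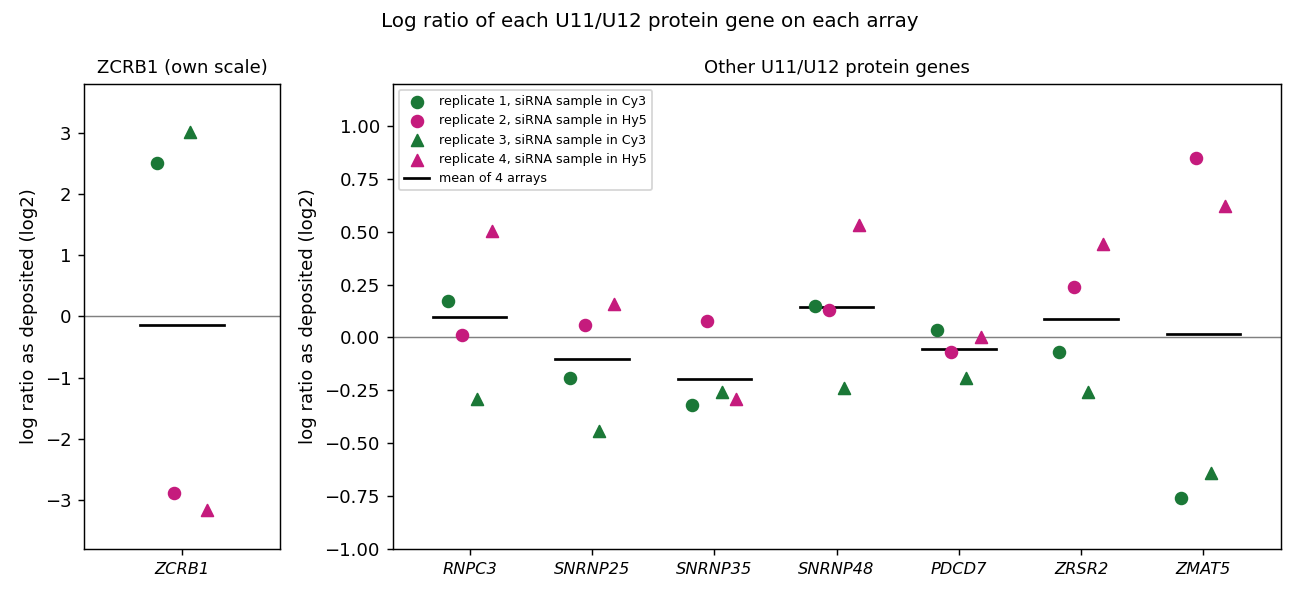
Log ratio (log2, as deposited) of each U11/U12 protein gene on each of the 4 arrays, ZCRB1 on a scale of its own at the left. Points are arrays, green for the Cy3 arrays and pink for the Hy5 arrays, and bars are means; ZCRB1 lies at 2.50 and 3.01 in 1 orientation and at -2.88 and -3.17 in the other, while the other 7 genes stay between -0.76 and 0.85.

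The genes whose 4 log ratios lay nearest to those of ZCRB1 were found by Euclidean distance over the 4 arrays. THAP9-AS1, an antisense RNA gene, was at a distance of 0.776, with 2.05 and 2.64 on the Cy3 arrays and -2.45 and -2.89 on the Hy5 arrays. NACA4P, a pseudogene of the NACA family, was at 0.823. PABPC3, a poly(A)-binding protein gene, was at 1.13, ITM2B, a BRICHOS membrane protein gene, at 1.14, and MYSM1, a histone H2A deubiquitinase gene, at 1.46. Each of these 5 genes rested on 1 feature too. Features of pseudogenes and of close paralogs such as PABPC3 can bind the RNA of their relatives, and those values are uncertain for that reason. The 4 of them other than ITM2B had means below 0, from -0.21 to -0.13, and ITM2B was at 0.15.

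None of the 8 genes passed the test on the mean log ratio. limma with dye orientation in the model called 0 of 8 (adjusted p from 0.510 to 0.965), where it called 0.0218% of all genes. At an unadjusted p under 0.05 there was 1 gene, SNRNP35, where 9.37% of all genes reached that level. With the intercept alone, limma called 0 of 8 and 0% of all genes, and 0 of the 8 had an unadjusted p under 0.05. Their means lay from -0.20 to 0.14, with 4 above 0 and 4 below 0 and a median of -0.02, against a median of -0.0025 over all genes. No member had 1 sign on all 4 arrays. Of all genes, 3.56% had 4 values above 0 and 3.50% had 4 values below 0. The 95% intervals of these means reached no further than -0.38 on the lower side and 0.37 on the upper side.

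**Figure D2:**
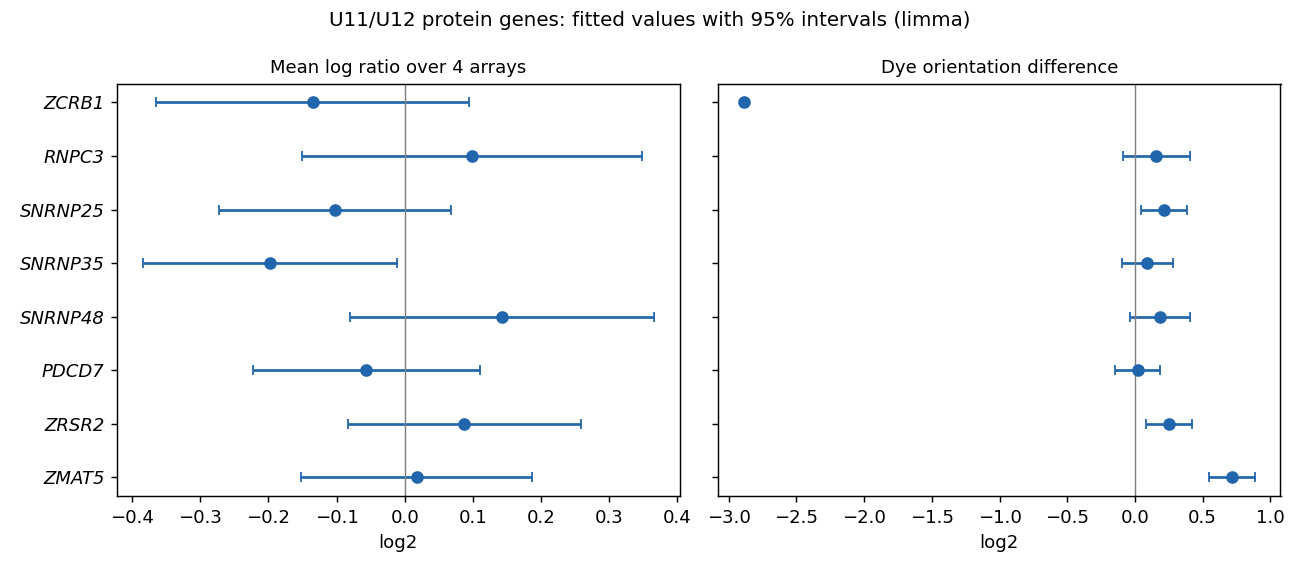
Fitted mean log ratio (left) and dye orientation difference (right) of the 8 genes in log2, points with 95% intervals from limma; ZCRB1 has no interval at the right because it was picked on that value. The means lie between -0.20 and 0.14, and the dye orientation differences of the 7 genes other than ZCRB1 between 0.02 and 0.72.

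Among the proteins of the U11 particle, SNRNP35 is related to the U1 protein SNRNP70 of the major spliceosome. Its log ratios were -0.32, 0.08, -0.26 and -0.29 on replicates 1 to 4, so 3 arrays lay close together below 0 and replicate 2 stood above them. The mean was -0.20 ± 0.19 (SD, n = 4), or 87.2% of control in the likely direction. It did not pass over all genes (limma unadjusted p = 0.0408, adjusted p = 0.510). Without replicate 2 it was at -0.29 (adjusted p = 0.322) and without replicate 4 at -0.11. Its orientations overlapped, and its dye orientation difference of 0.09 did not pass (limma adjusted p = 0.409). Turned by dye it would lie at 0.09.

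SNRNP25, a U11 protein with a ubiquitin-like fold, was at -0.19 and -0.44 on the Cy3 arrays and at 0.06 and 0.16 on the Hy5 arrays. The orientations did not overlap. The mean was -0.10 ± 0.27 (SD, n = 4; limma adjusted p = 0.728), and the dye orientation difference of 0.21 lay just inside the threshold (limma adjusted p = 0.0470). That call was lost without any 1 of the 4 replicates, with values of 0.15 to 0.28 and adjusted p from 0.078 to 0.246, and with the columns centred on their medians (0.17, adjusted p = 0.101). With medians of features in place of means, or with every feature tested by itself, its value of 0.21 stayed and its adjusted p was 0.0509 and 0.0793.

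SNRNP48 contacts the 5′ splice site of U12-type introns. Averaged over its 2 features it was at 0.15, 0.13, -0.24 and 0.53 on replicates 1 to 4, with a mean of 0.14 ± 0.31 (SD, n = 4; limma adjusted p = 0.710). Its 2 features, annotated to the same transcript, did not follow each other. Feature 13729 was at 0.48, -0.27, -0.40 and 0.61, and feature 29574 at -0.18, 0.53, -0.08 and 0.45. Only the latter had orientations that did not overlap, and its dye orientation difference of 0.31 passed over all features (limma adjusted p = 0.0139). For the gene mean the difference was 0.19 and did not pass (adjusted p = 0.158).

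RNPC3 and PDCD7 bind each other and link U11 to U12 in the di-snRNP, RNPC3 through an RNA recognition motif that binds U12 snRNA. RNPC3 was at 0.17, 0.01, -0.29 and 0.51 on replicates 1 to 4, and its orientations overlapped. The mean was 0.10 ± 0.33 (SD, n = 4; limma adjusted p = 0.837) and was below 0 without replicate 1 (-0.02) or replicate 4 (-0.03). Feature 31927 of RNPC3 ranged from -0.09 to 0.38 and feature 38634, annotated to a different transcript, from -0.49 to 0.63.

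PDCD7 had the smallest spread of the 8 genes, at 0.035, -0.07, -0.19 and 0.00 on replicates 1 to 4. Its mean was -0.06 ± 0.10 (SD, n = 4; limma adjusted p = 0.865). The dye orientation difference was 0.02 (adjusted p = 0.849), and 91.5% of all genes had a larger one. Its 2 features, annotated to the same transcript, had dye orientation differences of opposite sign, -0.11 for feature 3122 and 0.15 for feature 5934.

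ZRSR2, a relative of U2AF1 that recognises the 3′ splice site of U12-type introns, was at -0.07 and -0.26 on the Cy3 arrays and at 0.24 and 0.44 on the Hy5 arrays. The orientations did not overlap. The mean was 0.09 ± 0.31 (SD, n = 4; limma adjusted p = 0.779), and the dye orientation difference of 0.25 passed (limma adjusted p = 0.0245). Leaving out replicate 1, 3 or 4 ended that call, at 0.30, 0.21 and 0.20 with adjusted p-values of 0.0795, 0.167 and 0.130. Centred columns ended it as well (0.21, adjusted p = 0.0523).

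ZMAT5, a CCCH zinc finger protein of the di-snRNP, had the second largest dye orientation difference of the 8, and it ran against that of ZCRB1. The Cy3 arrays gave -0.76 and -0.64 and the Hy5 arrays 0.85 and 0.62. The channels of an array differed by 1.54-fold to 1.80-fold. The dye orientation difference was 0.72 (95% interval 0.55 to 0.89, limma adjusted p = 0.000212), and 7.54% of all genes had a larger one. In size it was smaller than that of ZCRB1 by a factor of 4.03. The mean of 0.02 ± 0.84 (SD, n = 4; limma adjusted p = 0.965) did not pass. Turned by dye, ZMAT5 would be 1.64-fold higher and ZCRB1 7.41-fold lower.

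On the dye orientation difference of the 7 genes other than ZCRB1, limma called 3 of the 7, SNRNP25, ZRSR2 and ZMAT5, where it called 44.8% of all genes. The same 3 had orientations that did not overlap, where 70.8% of all genes did not. All 7 had a difference above 0, as had 56.8% of all genes, but PDCD7 was at -0.02 with centred columns and at -0.04 without replicate 3. Without replicate 2, SNRNP35 was at 0. The median of the 7 genes was 0.19, against 0.03 over all genes. In size, the median was 0.188 for the 7 genes and 0.186 over all genes.

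**Figure D3:**
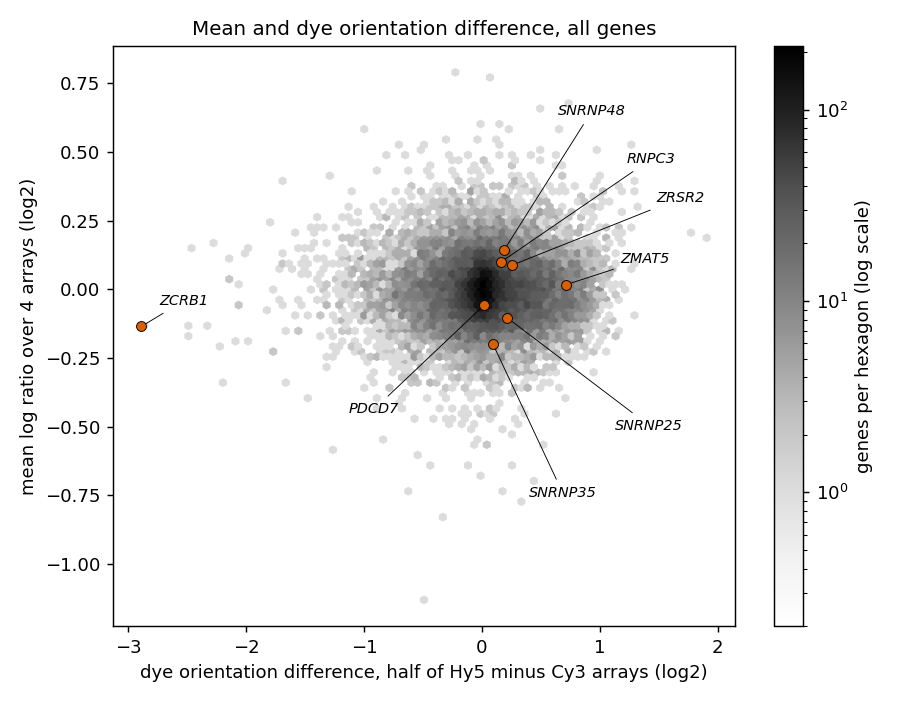
Mean log ratio over 4 arrays (vertical, log2) against the dye orientation difference (horizontal, log2) of all 18334 genes, as hexagons shaded on a log scale by the number of genes, with the 8 U11/U12 protein genes in orange. ZCRB1 lies farthest left at -2.89, with THAP9-AS1 next at -2.51, and the other 7 lie within the cloud, ZMAT5 at 0.72 nearest its right edge.

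Other factors of the minor spliceosome were measured for 7 of 7 listed genes. limma called 0 of 7 on the mean log ratio, beside 0.0218% of all genes. At an unadjusted p under 0.05 there was 1, beside 9.37% of all genes. The 7 factors had a median of 0.04 and a range from -0.10 to 0.17. CENATAC, which works with TXNL4B in the minor tri-snRNP, was highest at 0.17 (adjusted p = 0.494) and TXNL4B lowest at -0.10 (adjusted p = 0.793). On the dye orientation difference 4 of 7 (57.1%) were called, 1 above and 3 below 0, beside 44.8% of all genes, where 4927 were called above and 3292 below 0. RBM41, a relative of RNPC3 that also binds U12 snRNA, had the largest at -0.62 (limma adjusted p = 0.00026), with 0.64 and 0.72 on the Cy3 arrays and -0.62 and -0.52 on the Hy5 arrays. CENATAC followed at -0.49 (adjusted p = 0.000735).

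Proteins that both spliceosomes share gave no call on the mean log ratio either. The shares over all genes were 0.0218% called and 9.37% at an unadjusted p under 0.05. Of 7 SF3b subunits, which hold the branch point in both machines, limma called 0, with 1 at an unadjusted p under 0.05 and a median of -0.03. PHF5A (-0.16, adjusted p = 0.523) and SF3B2 (-0.08, adjusted p = 0.809) had the largest means, both below 0. Of 8 Sm ring proteins, which form the core of the snRNPs, limma called 0, with 0 at an unadjusted p under 0.05 and a median of 0.07. SNRPD2 (0.23, adjusted p = 0.537) and SNRPF (0.21, adjusted p = 0.625) were highest.

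On the dye orientation difference, 4 of 7 SF3b subunits (57.1%) and 3 of 8 Sm proteins (37.5%) were called, shares on either side of the 44.8% of all genes. SF3B5 (0.64) and PHF5A (-0.54) had the largest differences among the former, and SNRPG (-1.1) and SNRPD2 (0.98) among the latter. SNRPG had the signs of ZCRB1, with 0.80 and 1.44 on the Cy3 arrays and -1.09 and -1.07 on the Hy5 arrays. SNRPD2 had the opposite signs, so members of 1 ring lay on both sides.

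In the major spliceosome, 0 of 11 proteins of U1 and U2 were called on the mean, beside 0.0218% of all genes, with a median of -0.0038. At an unadjusted p under 0.05 there were 0, beside 9.37% of all genes. SF3A2 (0.15, adjusted p = 0.774) and U2AF1, the relative of ZRSR2 (-0.15, adjusted p = 0.568), had the largest means. Of 22 tri-snRNP proteins 0 were called, with 2 at an unadjusted p under 0.05, beside the same shares of all genes. Their median was -0.02. LSM3 was lowest at -0.26 (adjusted p = 0.480) and LSM8 highest at 0.23 (adjusted p = 0.502), both of the ring that binds U6 snRNA. On the dye orientation difference 7 of 11 (63.6%) and 16 of 22 (72.7%) were called, beside 44.8% of all genes. The calls were 4 above and 3 below 0 in the former, and 13 above and 3 below 0 in the latter. Over all genes, 4927 were called above and 3292 below 0. Largest in size were SF3A2 (0.96) and U2AF2 (0.95) among the U1 and U2 proteins, and PRPF6 (0.76) and PRPF8 (0.65) among the tri-snRNP proteins.

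Genes with a U12-type intron are the substrates of this machine, and 17 of 23 listed genes were measured here. The arrays report RNA abundance at a feature and not whether an intron was removed. limma called 0 of 17 on the mean log ratio, beside 0.0218% of all genes, with a median of 0.02 and 9 means above 0. At an unadjusted p under 0.05 there were 2, beside 9.37% of all genes. MAPK8, a JNK kinase gene, was above 0 on all 4 arrays, at 0.23, 0.10, 0.28 and 0.27, with a mean of 0.22 ± 0.08 (SD, n = 4; adjusted p = 0.368). MAPK9, another JNK kinase gene, was below 0 on all 4, at -0.01, -0.48, -0.68 and -0.12. Its mean was -0.32 ± 0.31 (SD, n = 4, limma adjusted p = 0.452). MAPK8 is an average of 12 features and MAPK9 rests on 1, and whether their spreads differ for that reason was not tested. Of the 17 genes, 1 was above 0 on all 4 arrays and 2 were below, beside 3.56% and 3.50% of all genes. On the dye orientation difference 9 of 17 (52.9%) were called, 7 above and 2 below 0, beside 44.8% of all genes. WDR41 (-0.84) and MAPK3 (0.77) had the largest differences.

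**Figure D4:**
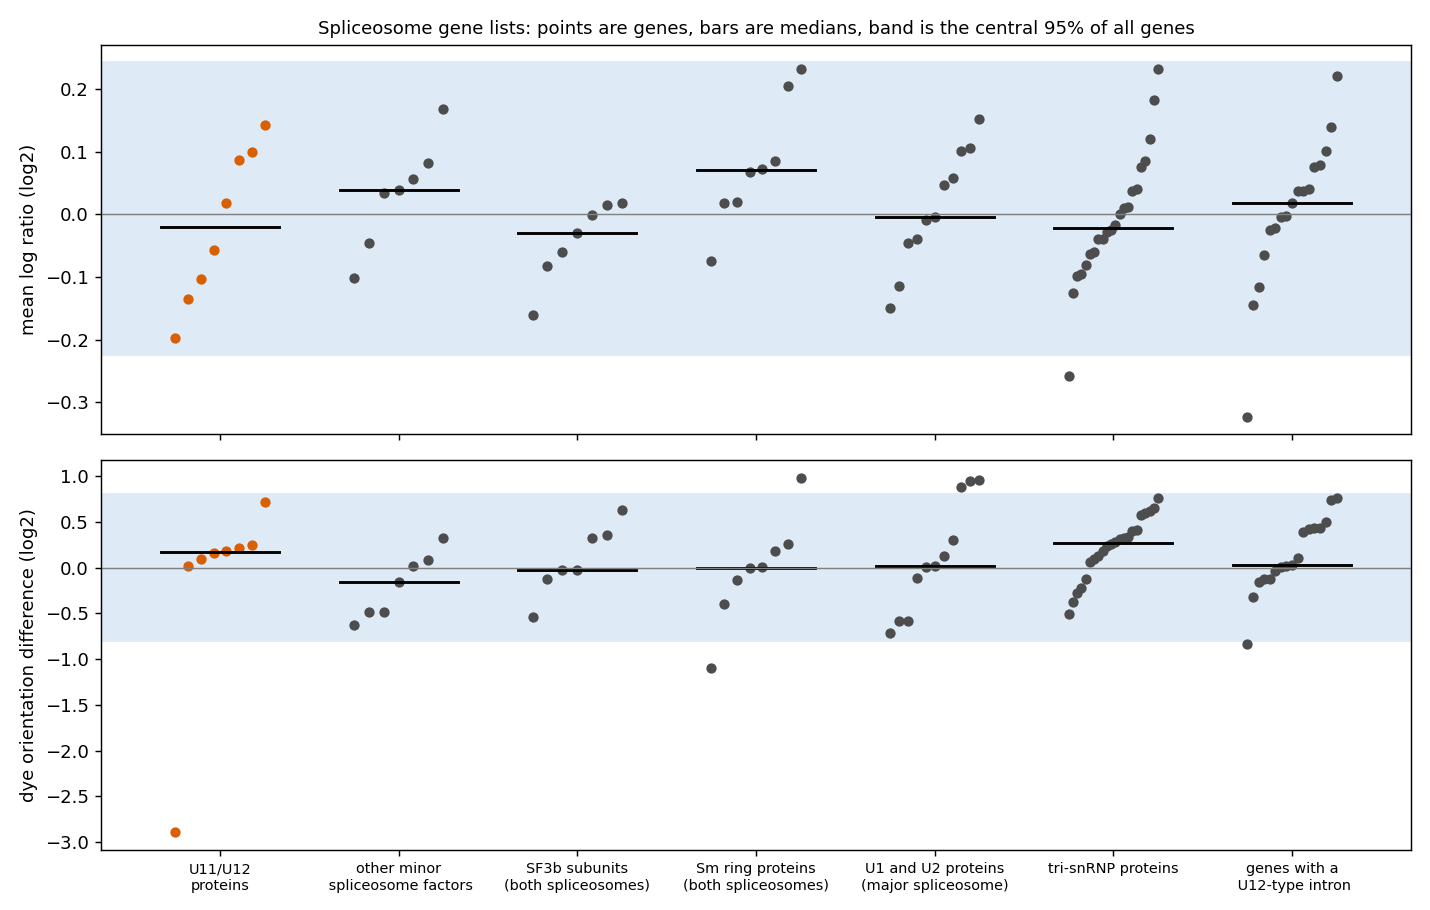
Mean log ratio (top, log2) and dye orientation difference (bottom, log2) of each gene of the U11/U12 particle (orange) and of 6 further lists (grey); points are genes, bars are list medians and the band holds the central 95% of all genes. The point at -2.89 in the lower panel is ZCRB1, and the U11/U12 means at the top all lie inside the band from -0.23 to 0.24.

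Markers of immune, erythroid, fibroblast and keratinocyte cells, cell types not named in the labels, were measured for 13 of 15 listed genes. limma called 0 of 13 on the mean log ratio, beside 0.0218% of all genes, with a median of 0.03 and a range from -0.12 to 0.07. At an unadjusted p under 0.05 there were 0, beside 9.37% of all genes. CD3E, of T cells, was at -0.12 and KRT14, of keratinocytes, at -0.08. On the dye orientation difference 4 of 13 (30.8%) were called, beside 44.8% of all genes, with HBA1, of erythroid cells, at 0.63 and CD14, of monocytes, at 0.39. Their part in the values above was not tested.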

How the data were processed

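The deposited values were log2 ratios (base assumed) of the 2 channels of 4 Agilent arrays, 1 column per array; 200 ng of RNA were amplified from an oligo dT-T7 primer, per the labels' protocols. Of their scanning, background correction, normalization, base and direction, each is not given in the sources used here. Column means were 0 to within rounding and medians were -0.02, 0.03, -0.02 and 0.02 for replicates 1 to 4. With log ratios alone, brightness over background is not known, and precision is limited by there being 4 arrays. Unused columns numbered 0.

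Features were named from the platform table, with symbols updated by Entrez identifier to RefSeq (31291 of 31332 features naming 1 gene matched), and averaged per gene. The model had a mean and a dye orientation coefficient (limma 3.58.1, R 4.3.3, eBayes, Benjamini-Hochberg over 18334 genes, threshold 0.05). It was also run on arrays simulated from its own fitted dye orientation differences with normal noise. That run bears neither on the direction of the columns nor on how the replicates were made. An exact sign-flip test over 4 arrays cannot give a two-sided p below 0.125. The alternatives were the intercept alone, columns turned by dye, centred or scaled, feature medians, single features, robust or no moderation, and leaving out each replicate.

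The genes, lists and tests were chosen with earlier results of these data known. Lists came from general knowledge of splicing; SNRPE stands in 2 of them. Named were all members, CHD6, the 5 genes nearest to ZCRB1, the next 2 by dye orientation difference, and in each list, with the markers taken as 1 list, any gene called on the mean log ratio and the 2 largest by size of either quantity. The 3 named features other than those of members were named after their values were seen. Probe sequences were not used here.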

Additional observations from a re-analysis of the deposited data

Results flagged for a closer look

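One value stood far from the rest of its 4 arrays. SNRNP35 was at 0.08 on replicate 2 and between -0.32 and -0.26 on the other arrays, a gap of 0.85 of the whole range. This was 1 of 43 sets of 4 values examined, where chance gives about 1 in 20, or 2.15.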

How the results depend on the processing

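The count of 0 of 8 genes called on the mean log ratio held under every alternative except turning the columns by dye, which makes the dye orientation difference the mean: the count was then 4. ZCRB1 was picked on that value, so its call there is no result, and the other 3 are the 3 of 7 below. Turned, the means of SNRNP25, SNRNP35 and PDCD7 changed sign, to 0.2125, 0.0925 and 0.021. Without each replicate in turn the RNPC3 mean lay between -0.025 and 0.2225 and the ZMAT5 mean between -0.04 and 0.075. The count of 3 of 7 genes called on the dye orientation difference was 2 with medians of features, where SNRNP25 was lost (adjusted p = 0.0509), and 1 with centred columns. With features tested singly it was 3, but SNRNP25 was lost (adjusted p = 0.0793) and SNRNP48 gained (adjusted p = 0.0139). It was 0 without moderation, where 5 genes of 18334 were called in all, and 1 to 2 without 1 replicate. That of PDCD7 was -0.021 with centred columns and -0.035 to 0.0775 without 1 replicate, and that of SNRNP35 was 0 without replicate 2. That of ZCRB1, on which the gene was picked, lay between -3.02 and -2.76 and is a description only. CHD6 passed at its strongest feature alone (-1.15, limma adjusted p = 0.0339). The counts over all genes on the mean were 4 in the model described and 0 to 8 under the alternatives that keep the direction and all 4 arrays. With features tested singly, 9 of 45220 features were called on the mean. Leaving out 1 replicate leaves 1 array in its dye orientation. The cause of the changes between settings was not tested. No paired analysis was possible because each array is itself a direct comparison and there is 1 group. Signal over background is unknown.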
